A study of Mus musculus with 6 samples.

Results

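The Pax-, Six- and Eya-family genes form a network of transcription factors that sets and keeps the myogenic lineage. The 8 genes Pax3, Pax7, Six2, Six4, Six5, Eya1, Eya3 and Eya4 of these families were followed across RIP-seq of the RNA-binding protein CPEB1 in mouse satellite cells (SCs), the stem cells of skeletal muscle. They were taken from a list of gene symbols, drawn up with earlier results of these data known, and all 8 were present among the 55376 genes counted. In RIP-seq an antibody pulls a protein out of a lysate on beads, and the RNA bound to it is sequenced. The 6 libraries came from freshly isolated SCs (fiSCs) of C57BL/6 mice at an age of 3 months in all groups, and the labels give no transgene or treatment. They comprised 2 CPEB1 IP libraries made with anti-CPEB1, 2 IgG libraries made with anti-IgG as the control antibody, and 2 Input libraries from RNA with no antibody. The SCs were sorted as CD31-, CD45-, Sca1- and Vcam1+ cells, and the number of animals behind each library was not given in the sources used here.

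Pax3 and Pax7 are paired-box factors that mark myogenic precursors in the embryo and, in the case of Pax7, nearly all SCs of adult muscle. Six-family proteins are homeobox factors that bind MEF3 sites in muscle genes, and Eya proteins are coactivators with phosphatase activity that bind Six-family proteins and cannot bind DNA alone. CPEB1 binds the cytoplasmic polyadenylation element (CPE), a U-rich motif in the 3′ UTR of an mRNA, and through it controls poly(A) tail length and translation.

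All 8 genes held at least 1 CPE in an annotated 3′ UTR. CPEs were searched on the sense strand as 9 motifs, written as DNA: TTTTAT (found in 53.8% of genes with a 3′ UTR), TTTTAAT (30.2%), TTTTAAAT (17.3%), TTTTACT (19.7%), TTTTCAT (25.4%), TTTTAATT (14.9%), TTTTAAGT (9.17%), TTTTAACT (7.58%) and TTTTAAAGT (4.53%). Some motifs contain others, so each start position was counted once. The first 2 motifs are called canonical here. By the same search 66.7% of the 21160 genes with an annotated 3′ UTR held a CPE and 58.8% a canonical one, so a CPE was common among mouse genes in general. The site of each gene that lies nearest to the 3′ end of its longest 3′ UTR, among canonical ones, is shown because it is the type of sequence to which CPEB1 binds. The motif is in capitals and the strand is that of the mRNA.
Pax3: gaactgagttaTTTTATacgttgggcag
Pax7: gaacattggctTTTTATatataaatcta
Six2: ttctgcttttaTTTTATaataaaattag
Six4: atttttgtttgTTTTAATTtttggtgatgc
Six5: tggggatcatgTTTTATatagcccaggc
Eya1: tgatagatataTTTTATtaataaaatta
Eya3: aaaaataaagtTTTTATtttctata
Eya4: ctaccttctatTTTTATgtagaatatcg
On mm10 these windows lie, within 3′ UTR exons of GENCODE M21 models, at chr1:78101405-78101432 on the minus strand for Pax3 and chr4:139738100-139738127 on the minus strand for Pax7. Those of the Six-family genes lie at chr17:85684287-85684314 on the minus strand for Six2, chr12:73104650-73104679 on the minus strand for Six4 and chr7:19098455-19098482 on the plus strand for Six5. Those of the Eya genes lie at chr1:14169696-14169723 on the minus strand for Eya1, chr4:132724741-132724765 on the plus strand for Eya3 and chr10:23103589-23103616 on the minus strand for Eya4. The Six4 window carried TTTTAATT, which contains the canonical motif TTTTAAT. The other 7 windows carried TTTTAT. In Six2 the motif was followed directly by AATAAA, the polyadenylation signal, with 0 bases between them, and in Eya1 with 1 base between them.

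On mm10 the genes themselves span chr1:78101267-78197134 (Pax3, minus strand), chr4:139737062-139833528 (Pax7, minus strand), chr17:85684277-85688274 (Six2, minus strand), chr12:73099609-73113456 (Six4, minus strand) and chr7:19094594-19098549 (Six5, plus strand). The Eya genes span chr1:14168954-14310235 (Eya1, minus strand), chr4:132638987-132724765 (Eya3, plus strand) and chr10:23102963-23350786 (Eya4, minus strand). Six2 and Six5 are compact genes of 4.0 and 3.96 kb, whereas Eya4 covers 247.8 kb. All 8 are protein-coding.

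The number of CPEs ranged from 1 to 11 within the group. Eya4 held 11 CPEs in a 3′ UTR of 3245 bases (3.39 per kb), and Six4 held 10 in 5170 bases (1.93 per kb). Pax7 held a single CPE in 3725 bases (0.27 per kb), the lowest density of the 8, and that motif began 2671 bases after the stop codon with 1049 bases left to the 3′ end. In the other 5 genes there were 5 CPEs in Eya3 (1.47 per kb), 4 in Eya1 (2.04 per kb), 3 in Pax3 (1.47 per kb), 2 in Six2 (2.21 per kb) and 1 in Six5 (1.24 per kb). The last CPE of Eya3 lay 8 bases before the end of its 3′ UTR, and that of Six2 lay 21 bases before.

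**Figure D1:**
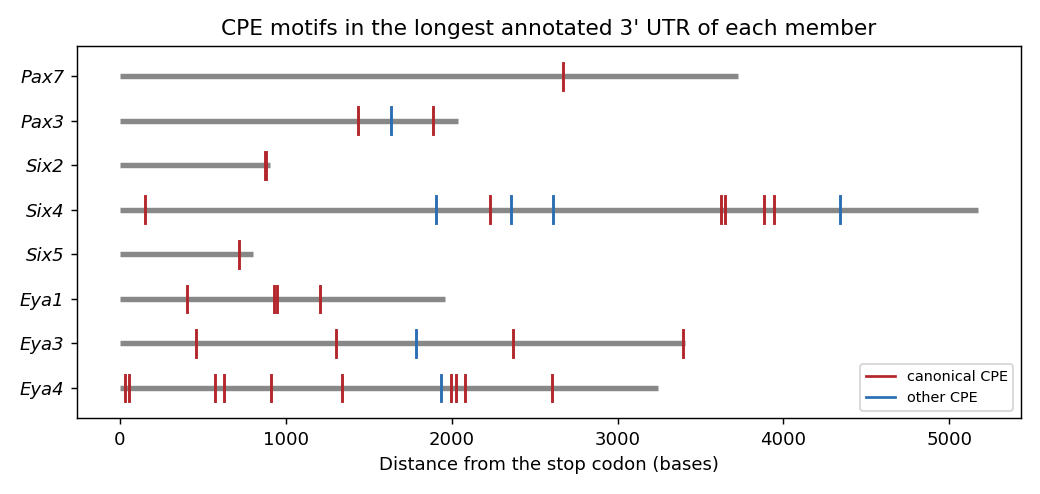
Position of each CPE motif (vertical tick) along the longest annotated 3′ UTR of each gene (grey bar), as distance from the stop codon in bases; red ticks are canonical motifs and blue ticks the other motifs. Pax7 shows a single tick in a long 3′ UTR, Eya4 shows 11 and Six4 shows 10.

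The depth available for these genes was small. Counts on genes were between 1284716 and 4941653 for each library, lowest in IgG, and reads on genes made up 39.1% to 39.5% of the authors' library total in IgG against 69.5% to 79.8% in Input and CPEB1 IP. Libraries of the same group differed from each other by more than counting noise, so each was kept as a separate sample, and p-values measure the spread between these libraries, which stem from 2 experiments. Cpeb1 mRNA itself, which encodes the target of the antibody, was higher in CPEB1 IP than in IgG (log2 fold change 1.09 ± 0.12 SE, edgeR adjusted p = 2.495e-06), with 30.8 and 35.1 FPKM in CPEB1 IP against 8.74 and 8.99 in IgG and 16.5 and 15.0 in Input. Markers of SCs were high in both Input libraries, with a summed FPKM of 2089 to 2560 over 7 genes, of which Sdc4 was the highest. Markers of endothelial and blood cells, which the sort excludes, were far lower in Input, at 14.7 to 16.9 summed FPKM for 4 endothelial genes and 6.26 to 12.5 for 4 haematopoietic genes. Ptprc, which encodes CD45, was at 0 FPKM in Input replicate 1 and at 0.0132 in Input replicate 2. Cd68 made up most of the haematopoietic sum, at 12.4 and 6.13 FPKM in the same libraries. The other genes of the antigens sorted against were not absent from Input. Pecam1, which encodes CD31, was at 1.99 and 1.47 FPKM there, and Ly6a, which encodes Sca1, at 5.59 and 4.398.

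In Input, Pax7 was by far the most abundant of the 8 transcripts and the other 7 were expressed at low levels. Levels between genes are given in FPKM, which is scaled to gene length. Pax7 reached 39.8 and 46.0 FPKM in the 2 Input libraries (42.9 ± 4.44, SD, n = 2), which placed it at rank 899 of all genes, and it made up 73.6% and 74.7% of the FPKM summed over the 8 genes. Eya1 followed with 4.29 and 5.21 FPKM and Eya4 with 2.79 and 3.53 FPKM. The ranges of these 3 genes did not overlap each other or those of the genes under them.

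The remaining 5 genes lay close together, between 0.867 and 1.92 FPKM in single libraries. Eya3 had 1.73 and 1.92 FPKM in Input, Pax3 had 1.76 and 1.44, and Six2 had 1.74 and 0.909. Six4, a regulator of myogenic genes together with its paralogues, had 1.06 and 1.55 FPKM, and Six5, whose gene lies next to the DMPK gene of myotonic dystrophy, had 0.867 and 1.04. Neighbours in this order overlapped between Eya3 and Pax3, between Pax3 and Six2, and between Six2 and Six4, so their order was not resolved with 2 libraries.

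None of the 8 transcripts was called enriched in CPEB1 IP over IgG. This comparison asks which RNAs come down with CPEB1 beyond those that stick to beads and control antibody. Of the 7 genes that passed the filter on low counts, 0 were called higher and 0 lower at an adjusted p under 0.05 by edgeR's quasi-likelihood test, and 0 had an unadjusted p under 0.05. DESeq2, which tested all 8, also called 0 and found 0 at an unadjusted p under 0.05. Among all 12124 genes tested 33.4% were called, with 14.7% higher (1779 genes) and 18.7% lower (2265 genes), while DESeq2 called 2635 higher and 998 lower. The median log2 fold change was -0.22 over the 7 genes and -0.01 over all genes tested.

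Pax7 came down with either antibody, to levels whose difference was within the spread between libraries. On the scale of TMM-normalised CPM, counts scaled to library size, its level was 90.8 and 92.5 in CPEB1 IP and 92.7 and 80.8 in IgG. Both CPEB1 IP values lay inside the IgG range. The log2 fold change was 0.02 ± 0.14 (SE), with a 95% interval from -0.28 to 0.31 and an adjusted p of 0.945 by edgeR. The interval was the narrowest of the 7 genes tested, with counts of 218 and 448 in CPEB1 IP and 122 and 111 in IgG. DESeq2 gave Pax7 a log2 fold change of 0.30 ± 0.18 (SE, adjusted p = 0.249). With no filter on low counts edgeR gave 0.42 (unadjusted p = 0.0268, adjusted p = 0.135), above that interval. The size of the value thus moved with the setting, and no setting called it. Pax3, the paralogue used mainly in embryonic precursors, had 28 and 48 counts in CPEB1 IP and 11 and 15 in IgG. Its CPM overlapped between groups, at 11.7 and 9.91 against 8.35 and 10.9, with a log2 fold change of 0.07 (95% interval -0.77 to 0.91, edgeR adjusted p = 0.913).

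Of the Six-family genes, Six2 and Six5 were counted too sparsely for small differences to be seen. Six2, known best for kidney progenitors and also expressed in connective tissue and muscle, had 8 and 27 counts in CPEB1 IP and 2 and 11 in IgG. Its CPM was 3.33 and 5.57 against 1.52 and 8.01, so that both CPEB1 IP values lay between the IgG values, and the 95% interval of its log2 fold change ran from -1.32 to 1.11. Six4 was at 22.1 and 16.5 CPM in CPEB1 IP and 19.0 and 23.3 in IgG, which also overlapped (log2 fold change -0.23 ± 0.30 SE, edgeR adjusted p = 0.598). Six5 did not pass the filter. It had 1 and 11 counts in CPEB1 IP against 4 and 0 in IgG, and the 0 of 1359052 counts allows a level of up to 2.21 CPM in that library by counting error alone, so no difference was detectable at this depth.

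The 3 Eya genes had log2 fold changes under 0 that did not pass the test. Eya1, the most abundant of them, was at 48.3 and 49.3 CPM in CPEB1 IP and 68.4 and 40.8 in IgG, with both CPEB1 IP values inside the IgG range. Its log2 fold change was -0.22 ± 0.20 (SE, edgeR adjusted p = 0.445). Eya3 was at 15.8 and 19.8 CPM against 19.7 and 24.0 in IgG, which barely overlapped (log2 fold change -0.34 ± 0.30 SE, adjusted p = 0.418). Eya4 was at 27.5 and 24.4 CPM against 27.3 and 37.1, where the groups again overlapped (log2 fold change -0.40 ± 0.25 SE, adjusted p = 0.239). In the main fit the upper end of the 95% interval lay below a log2 fold change of 1 in 6 of the 7 genes tested, the exception being Six2. Smaller differences in either direction lie within these intervals. For Pax3 the value and its SE were larger in other settings, at 0.37 ± 0.55 with DESeq2 and 0.47 ± 0.45 with no filter. The limit for Pax3 thus does not carry over to those settings. With no filter on low counts the values moved to 0.42 for Pax7, 0.18 for Eya1, 0.07 for Eya3 and 0.01 for Eya4, and none was called.

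**Figure D2:**
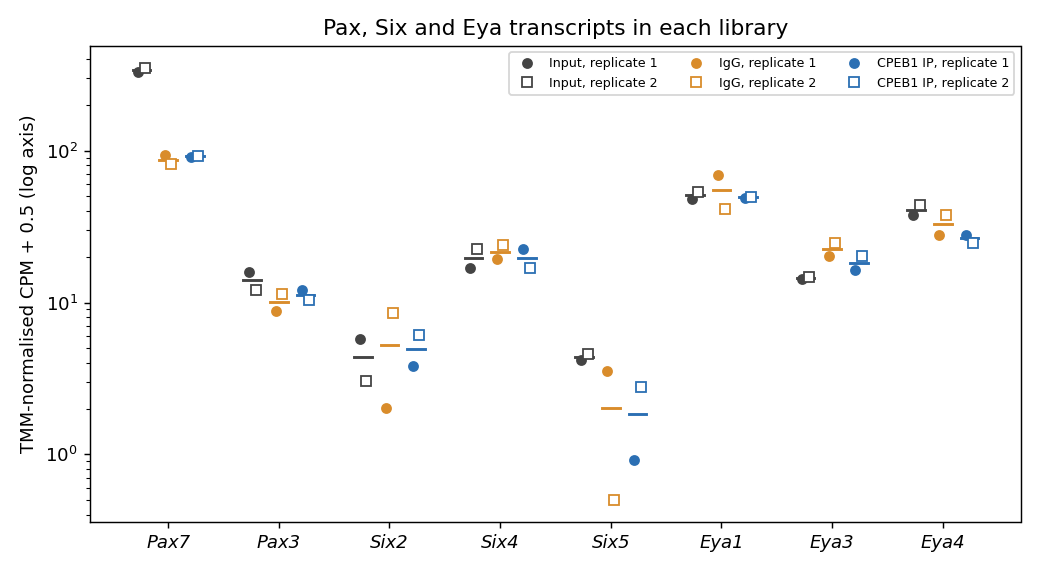
TMM-normalised CPM plus 0.5 (log axis) of each gene in each library; circles are replicate 1, squares replicate 2 and short bars the group mean, with Input in grey, IgG in orange and CPEB1 IP in blue. CPEB1 IP and IgG points lie together for Pax7 near 90 CPM, well under the Input points at 329 and 353 CPM.

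The study also used a criterion on the FPKM ratio of CPEB1 IP over IgG, which had to exceed 2 in each experiment. With 1 added to each FPKM, 0 of the 8 genes met it, against 14.4% of the 12124 genes tested. The study's methods name no such addition, which draws the ratios of scarce transcripts toward 1. Pax7 had ratios of 1.504 and 1.82 in the 2 experiments, Pax3 had 1.44 and 1.23, and Six4 had 1.36 and 1.10. Eya1 had 1.11 and 1.73, Eya3 had 1.17 and 1.27, and Eya4 had 1.34 and 1.08. Six2 had 1.57 and 1.12, and Six5 had 0.774 and 1.52. The median over all genes tested was 1.455 and 1.525, on a scale whose library total held a smaller part on genes in IgG than in CPEB1 IP. Pax7 lay above the median in both experiments and the other 7 genes did so in at most 1. With TMM library sizes in the FPKM the ratios of Pax7 were 0.981 and 1.13. With 0.1 added in place of 1, Pax3 (2.06) and Six2 (2.89) exceeded 2 in experiment 1 only. Eya1 (2.04) and Six5 (6.145) did so in experiment 2 only, where Six5 had 0 counts in IgG.

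Pax7 was lower in CPEB1 IP than in Input, and so was Eya4, by less, while the other 6 genes did not pass the test. This comparison sets recovery with the antibody beside the level in the cells. Of the 8 genes, all of which passed the filter, 2 were called lower and 0 higher by edgeR, against 15.8% lower and 17.0% higher (32.8% in either direction) among the 12171 genes tested. For 0 genes was an unadjusted p under 0.05 found in the higher direction, and DESeq2 called 1 of the 6 for which it gave an adjusted p lower and 0 higher. The median log2 fold change was -0.14 over the 8 genes and -0.0038 over all genes tested.

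Pax7 fell from 329 and 353 CPM in Input to 90.8 and 92.5 CPM in CPEB1 IP. Both CPEB1 IP values were far below both Input values. The log2 fold change was -1.84 ± 0.13 (SE; 95% interval -2.13 to -1.55; edgeR adjusted p = 1.575e-06), a level 3.58-fold lower, which placed it at percentile 1.07 of the genes tested. Under the 10 alternative settings it lay between -1.91 and -1.80 and was called in all 10. The 7 SC markers summed to 2089 to 2560 FPKM in Input, 1077 to 1096 in IgG and 1919 to 2322 in CPEB1 IP, sums made up mostly of Sdc4. Within that list Calcr, the calcitonin receptor of quiescent SCs, was at 82.6 and 110 FPKM in Input and 29.1 and 27.8 in CPEB1 IP, and Cdh15 at 150 and 142 against 24.99 and 29.9. Chrdl2 was at 76.1 and 76.4 FPKM in Input and 111 and 120 in CPEB1 IP, so the members of the list did not move as one. The 3 smooth muscle and pericyte markers summed to 172 to 217 FPKM in Input, 32.2 to 33.1 in IgG and 82.2 to 85.2 in CPEB1 IP, with Acta2 the highest. The 4 fibroblast markers summed to 151 to 160, 40.9 to 48.5 and 91.7 to 92.8 FPKM in the same order, but Col3a1 alone set that direction, at 137 and 145 FPKM in Input and 44.7 and 43.2 in CPEB1 IP. Dcn, Ly6a and Pdgfra were each higher in both CPEB1 IP libraries than in both Input libraries, with Dcn at 8.86 and 10.3 FPKM in Input and 33.1 and 32.4 in CPEB1 IP. The 5 myofibre markers summed to 24.5 to 26.5 FPKM in Input and 44.3 to 57.3 in CPEB1 IP, mainly through Acta1 at 16.4 and 15.1 against 33.5 and 41.8, while Ckm overlapped and Myh1 was at 0.684 and 0.417 against 0.343 and 0.376. Tendon (2 genes) and Schwann markers (3 genes) summed to at most 12.8 FPKM in Input and at most 25.9 in CPEB1 IP. The part of such cells in the result was not tested. Marker levels in CPEB1 IP and IgG also depend on how much of each RNA came down with the antibody. In bulk libraries such recovery, the number of cells of a type and the RNA per cell cannot be told apart.

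Eya4, a cofactor of Six-family proteins, was at 37.1 and 43.5 CPM in Input and 27.5 and 24.4 in CPEB1 IP, and the groups did not overlap. Its log2 fold change was -0.60 ± 0.20 (SE; 95% interval -1.03 to -0.16; edgeR adjusted p = 0.0386), a level 1.51-fold lower. The direction was the same under the 10 alternatives but the call held in 4 of them, with adjusted p from 0.00844 to 0.283. It was lost with DESeq2 (0.155), with no filter on low counts (0.0679) and with the experiment number as a replicate block (0.0576). It was also lost without CPEB1 IP replicate 1 (0.137), CPEB1 IP replicate 2 (0.283) or Input replicate 2 (0.0801).

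The other Eya genes and Pax3 did not pass the test. Eya1 had a log2 fold change of 0.01 with a 95% interval from -0.35 to 0.38, from 47.3 and 53.2 CPM in Input to 48.3 and 49.3 in CPEB1 IP. Eya3 had 13.8 and 14.2 CPM in Input and 15.8 and 19.8 in CPEB1 IP. These Eya3 values did not overlap, yet the difference did not pass the test (log2 fold change 0.42 ± 0.27 SE, adjusted p = 0.255). Pax3 was at 15.3 and 11.7 CPM in Input and 11.7 and 9.91 in CPEB1 IP, so that the groups met at their ends, with a log2 fold change of -0.29 (95% interval -0.98 to 0.39, adjusted p = 0.509).

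Among the Six-family genes none was called. Six4 had a log2 fold change of 0.03 (95% interval -0.55 to 0.62), with 16.3 and 22.0 CPM in Input, and Six2 of 0.31 (95% interval -0.78 to 1.41), with 5.22 and 2.52 CPM in Input. Six5 was at 3.68 and 4.09 CPM in Input and 0.417 and 2.27 in CPEB1 IP. These Six5 values did not overlap, but they rest on 12 and 13 counts against 1 and 11, and the difference did not pass the test (log2 fold change -1.22 ± 0.61 SE, adjusted p = 0.146). Six5 passed the filter on low counts only through Input, so its direction was set by the filter and its values are a description.

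**Figure D3:**
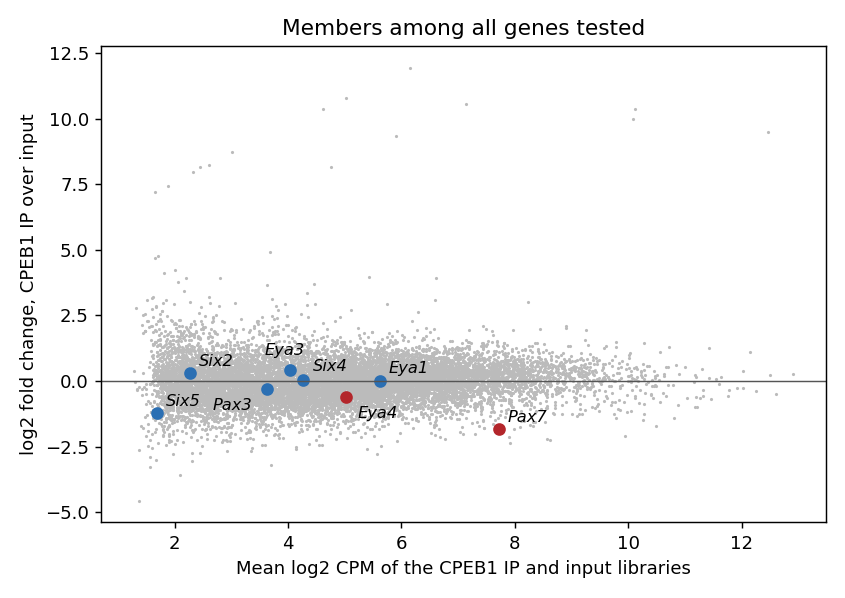
Log2 fold change of CPEB1 IP over Input against the mean log2 CPM of these 4 libraries; grey points are the 12171 genes tested, red points the members called (Pax7 and Eya4) and blue points the other 6 members. Pax7 lies at the lower edge of the genes of its abundance, at -1.84, and Eya4 lies within the cloud.

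The IgG libraries gave the background recovery of each transcript, and there too Pax7 was low. Of the 7 genes tested for IgG against Input, 1 was called lower and 0 higher by edgeR, against 19.4% lower and 21.4% higher (40.7% in either direction) among 12980 genes. For 0 genes was an unadjusted p under 0.05 found in the higher direction, and DESeq2 likewise called 1 lower and 0 higher. Pax7 had a log2 fold change of -1.98 ± 0.17 (SE; 95% interval -2.32 to -1.64; edgeR adjusted p = 3.476e-12), a level 3.93-fold lower, which lay between -2.25 and -1.87 under the 10 alternatives with the call held in all 10. This comparison shares its Input libraries with that of CPEB1 IP against Input, so the 2 values for Pax7 are not independent. Both antibodies left Pax7 near the same level, about 90 CPM.

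The other 6 genes tested were not called. Eya3 had the highest value, with 19.7 and 24.0 CPM in IgG above 13.8 and 14.2 in Input (log2 fold change 0.64 ± 0.37 SE, edgeR adjusted p = 0.158). Eya4 had a log2 fold change of -0.32 (adjusted p = 0.356) and Pax3 of -0.49 (adjusted p = 0.392). Eya1 had 0.12, Six4 had 0.15 and Six2 had 0.30. Six5 was not tested, with 4 and 0 counts in IgG against 12 and 13 in Input.

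**Figure D4:**
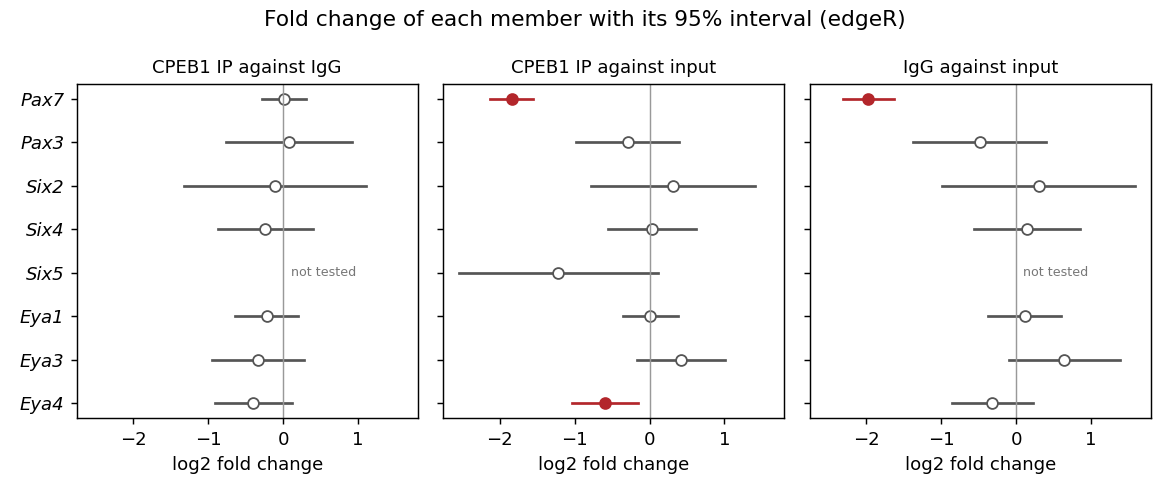
Log2 fold change of each gene (point) with its 95% interval (line) in the 3 comparisons; filled red points passed an adjusted p under 0.05 and open points did not. Pax7 is at 0.02 for CPEB1 IP against IgG and near -2 in both comparisons with Input.

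The lower level of Pax7 relative to Eya1 and Pax3 was also seen within each library, where no normalisation between libraries enters. The FPKM of Pax7 over that of Eya1 was 9.28 and 8.83 in Input, 1.81 and 2.64 in IgG, and 2.50 in both CPEB1 IP libraries. Over Pax3, it was 22.6 and 32.0 in Input, 11.7 and 7.81 in IgG, and 8.22 and 9.85 in CPEB1 IP. Input stood above the other libraries in both ratios, and those of IgG and CPEB1 IP overlapped. Eya4 over Eya3, a ratio within the Eya family, was 1.61 and 1.84 in Input, 0.830 and 0.927 in IgG, and 1.04 and 0.737 in CPEB1 IP. Eya4 was thus above Eya3 in both Input libraries, below it in both IgG libraries, and on either side of it in CPEB1 IP. Such ratios show unequal change and not which of the genes moved. The share of Pax7 in the FPKM of the 8 genes went from 73.6% and 74.7% in Input to 44.2% and 39.5% in IgG and 46.9% and 45.5% in CPEB1 IP. Scaled to the counts on genes alone, the 8 genes together reached 466 and 483 CPM in Input, 246 and 227 in IgG, and 206 and 216 in CPEB1 IP.

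Pax7 nevertheless remained the most abundant of the 8 transcripts in every group. In mean FPKM it was followed by Eya1, Eya3, Eya4, Six2, Six4, Pax3 and Six5 in both IgG and CPEB1 IP, whereas Eya4 was above Eya3 in Input, where their ranges did not overlap. The ranges of neighbours overlapped from Eya3 through to Six4 in IgG and from Eya3 through to Pax3 in CPEB1 IP, so these parts of the order were not resolved. The rank of Pax7 among all genes was 899 in Input, 3260 in IgG and 3401 in CPEB1 IP, and that of Eya1 was 6330, 6158 and 6235. The ranks of Eya1 in the 3 groups were much closer together than those of Pax7.

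The profile of Pax7 over the 6 libraries was shared by other transcripts of like abundance. For each family the gene of highest mean Input FPKM was used, which was Six2 by a margin over Six4 that was not resolved. Likeness was the Euclidean distance between log2 CPM centred on the mean of each gene, among genes within 1 log2 CPM of the member. Birc3, an inhibitor of apoptosis, was closest to Pax7 (distance 0.23 among 2455 genes), with 263 and 304 CPM in Input, 67.6 and 61.2 in IgG and 77.5 and 79.7 in CPEB1 IP. Col15a1, a basement membrane collagen, came next (0.25). Both were lower with either antibody than in Input. Closest to Eya1 were Mfn1 (0.15), a mitochondrial fusion protein, Strn4 (0.18) and Thumpd3 (0.20) among 4003 genes, each highest in IgG replicate 1 as Eya1 was. Closest to Six2 were Zfp691 (0.37), Prob1 (0.40) and Fbln7 (0.44) among 4277 genes, a likeness that rests on 25 Input counts of Six2. Neighbours in such a ranking are a description of 6 libraries.

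Calls among other genes of the same network were counted beside those among genes in general. A list of 45 further family members, Dach and Tle corepressors, Pax partners and myogenic genes was used, of which 44 were measured. In CPEB1 IP against IgG 31 were tested, 6 were higher, 3 lower and 22 did not pass, with a median log2 fold change of 0.17, against 14.7% higher and 18.7% lower among all genes tested. Pax6 and Dach2 are among the 3 lower and passed the filter only through IgG, so that tally is a description. The Pax7 partner Nedd4, a ubiquitin ligase, rose over IgG by 0.91 ± 0.10 (SE, edgeR adjusted p = 9.835e-07), with 31.2 and 33.6 FPKM in CPEB1 IP and 9.67 and 10.1 in IgG. Nedd4 was at 51.6 and 66.1 FPKM in Input. Against Input it was lower in CPEB1 IP (log2 fold change -0.66, edgeR adjusted p = 0.001745) and in IgG (-1.69, edgeR adjusted p = 2.181e-12). Daxx, a histone chaperone that binds Pax3, rose by 0.83 (adjusted p = 0.00681), and Cdh15, which encodes M-cadherin, an adhesion protein of SCs, by 0.75 (adjusted p = 0.000374). The 2 genes of largest size among the 9 called, Pax6, a factor of eye and nervous system (log2 fold change -2.49), and Dach2, a cofactor of Six-family and Eya proteins (-1.73), were scarce and passed the filter on low counts only through IgG, so their direction was set by the filter and their values are a description. Pax6 had 5 and 2 counts in CPEB1 IP against 8 and 7 in IgG, and Dach2 had 8 and 11 against 14 and 9, in IgG libraries of lower depth.

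Against Input, 8 of the 31 genes tested were higher in CPEB1 IP, 8 were lower and 15 did not pass, against 17.0% higher and 15.8% lower among all genes tested. Of the 15 upstream and downstream myogenic genes among them, 3 were higher, 6 lower and 6 did not pass. Cdh15 fell by 2.22 on the log2 scale (edgeR adjusted p = 7.396e-07), from 150 and 142 FPKM to 24.99 and 29.9. Myog, the factor of terminal differentiation, fell by 2.16 (adjusted p = 0.000375). Fgfr4, an FGF receptor of SCs, fell by 1.72 (adjusted p = 4.473e-06). Lbx1, a homeobox factor of migrating muscle precursors, fell by 1.45 (adjusted p = 0.00556). Tle1, a Groucho corepressor, rose by 1.47 (adjusted p = 0.000852), from 0.798 and 1.11 FPKM to 2.35 and 2.28.

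In IgG against Input 33 were tested, 6 were higher, 10 lower and 17 did not pass, against 21.4% higher and 19.4% lower among all genes tested. These calls include Pax6, Dach2, Myog and Lbx1, which each passed the filter on low counts through a single group, so the tally is a description. Cdh15 fell by 3.08 on the log2 scale (edgeR adjusted p = 4.923e-18). Myog, with 1 and 5 counts in IgG against 93 and 66 in Input, passed the filter on low counts only through Input. So did Lbx1, with 8 and 2 counts in IgG against 60 and 54 in Input. Their direction was thus set by the filter, and their log2 fold changes of -3.44 and -2.23 are a description. Pax6 and Dach2 again passed the filter only through IgG, and their values are a description. Pax6 had 3 and 2 counts in Input and 8 and 7 in IgG, a log2 fold change of 2.76. Dach2 had 0 counts in both Input libraries and 14 and 9 in IgG, at least 19.1-fold higher when Input is set to the floor of 3 counts over the group. Cdh15 was thus lower with both antibodies than in Input, as was Pax7, in comparisons that share the Input libraries.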

How the data were processed

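Raw reads were mapped to mm10 by the authors with HISAT and counted on genes with featureCounts, and the deposited raw counts carry no normalization. The FPKM deposited by the authors divide each count by gene length and by a total per library, which exceeds the sum of its gene counts. The processing notes also name StringTie. The annotation release, the strand setting and the treatment of multimapping reads were not given in the sources used here. No exon of the 8 genes overlapped that of another gene in GENCODE M21, and of all windows of 75 bases only 1 in Six2 and 19 in Six4 were shared with another gene.

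Counts were compared 2 groups at a time, 2 libraries each, in R 4.3.3 with edgeR 4.0.16 (filterByExpr, TMM, quasi-likelihood test, Benjamini-Hochberg adjustment over all genes tested at 0.05). The SE is the size of the log2 fold change divided by the square root of F. Values were read from the whole-table fits. CPM are TMM-normalised over the 6 libraries. DESeq2 1.42.0, other size factors, no filter, a replicate block, all 6 libraries in 1 fit and leaving out each library were the alternatives. The procedure was tested on simulated data. The FPKM ratio used a pseudocount of 1, with 0.1 and 5 and TMM library sizes as alternatives. Tables and motif searches used Python 3.11.15 with pandas 2.3.3 and numpy 2.4.6, and UTR sequences came from GENCODE M21 transcripts on mm10. The intervals and floors of counts cover counting error only.

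The methods pair the CPEB1 IP and IgG of an experiment. Libraries with the same number did not deviate together from their groups (r = -0.0095 over 12124 genes between CPEB1 IP and IgG, -0.0286 between CPEB1 IP and Input, 0.0274 between IgG and Input). The main fits therefore did not pair the libraries by number. Such deviations also hold counting noise, so these values do not exclude a pairing. The FPKM ratios did pair CPEB1 IP and IgG by number. With the replicate block the call of Eya4 in CPEB1 IP against Input was lost (edgeR adjusted p = 0.0576).

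The 8 genes and the lists were chosen with earlier results of these data known. All 8 were named in every comparison, with the 5 called network genes of largest log2 fold change in each, and the 3 genes most like the member of each family with the highest mean Input FPKM, of which 1 is not reported here.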

Additional observations from a re-analysis of the deposited data

How the results depend on the processing

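Of 218 recomputed values for the 8 genes, 177 kept their direction and their side of the threshold, 6 lost a call (all Eya4 in CPEB1 IP against Input) and 35 changed sign, none of which was called. The cause was not tested. Members lower in CPEB1 IP against Input numbered 2, and 1 with DESeq2, no filter or the replicate block. With each library left out, the log2 fold change there ran from -1.91 to -1.80 for Pax7 and from -0.73 to -0.50 for Eya4. The replicate block (adjusted p = 0.0576 for Eya4) changed no other call of a member.

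In CPEB1 IP against IgG, log2 fold changes changed sign with DESeq2 to 0.14 for Six2, 0.065 for Six4 and 0.062 for Eya1. With no filter they were 0.30, 0.17 and 0.18, and 0.070 for Eya3 and 0.0068 for Eya4, and with library sizes alone -0.045 for Pax7. In CPEB1 IP against Input, Eya1 was at -0.021 with DESeq2, -0.057 with library sizes alone, -0.013 with no filter and -0.039 with all 6 libraries, and Six4 at -0.036 with library sizes alone and -0.017 with all 6. In IgG against Input, Six4 was at -0.13 with no filter, Eya1 at -0.023 with DESeq2 and -0.15 with no filter, and Cpeb1 at -0.093 and -0.22.

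With each library left out, values in CPEB1 IP against IgG ran from -0.056 to 0.32 for Pax3, -0.032 to 0.17 for Pax7, -0.78 to 1.58 for Six2, -0.39 to 0.019 for Six4 and -0.50 to 0.25 for Eya1. Against Input, CPEB1 IP values ran from -0.21 to 0.92 for Six2, -0.20 to 0.24 for Six4 and -0.088 to 0.087 for Eya1. IgG values ran from -1.34 to 1.02 for Six2, -0.036 to 0.36 for Six4, -0.32 to 0.43 for Eya1 and -0.093 to 0.20 for Cpeb1.

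Counts over all genes also moved. DESeq2 called 1227 higher and 1189 lower in CPEB1 IP against Input (2069 and 1921 with edgeR), and 1134 and 1594 in IgG against Input (2772 and 2515). No filter gave 3513 higher in CPEB1 IP against IgG. Without CPEB1 IP replicate 2, calls fell to 1054 and 677 there and to 957 and 1086 against Input. The median of all genes in IgG against Input was 0.03, and 0.14 with library sizes alone and 0.24 with DESeq2. With no filter, which adds many genes of few counts, the medians were 1.84 there, -0.90 in CPEB1 IP against IgG and 0.55 in CPEB1 IP against Input. No member met the FPKM ratio under any pseudocount, and the 8 genes held a CPE also with canonical motifs or the longest 3′ UTR alone. With 2 libraries a group and under 40 counts in several of them, small differences of Six2, Six5 and Pax3 lay below what the depth can show.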
